A study of Canis lupus familiaris with 8 samples.

Results

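Cells sense being pulled partly through ion channels that open when the membrane is under tension. The genes described here are 8 channels and channel-like receptors linked to force sensing. They are the PIEZO channels PIEZO1 and PIEZO2, the TMEM63 channels TMEM63A and TMEM63B, the TRP channels TRPV4 and TRPM7, and the polycystins PKD1 and PKD2. They were chosen by name from the 37952 genes of the deposited count table, all 8 were found there, and 7 had enough reads to be tested. Messenger RNA was sequenced from sheets of MDCK GII, an epithelial cell line from dog kidney, that had been seeded overnight on collagen-coated elastic silicone in devices with several wells. In the stretch group, vacuum stretched the silicone and the attached cells by the same amount along both axes of the plane, and this static strain of 18% was held for 2 hours. Control wells were grown in devices of the same kind without strain. Each group had 4 wells, with replicate numbers 1 to 4 in the titles. The labels name no genetic change or added agent in either group, and they call the wells of a group technical quadruplicates, so errors and p-values measure the spread between wells of a single line and may be technical. The series title places the experiment in work on how force at E-cadherin junctions turns on EGFR and ERK signalling. The question here is at which levels the channels are transcribed in these monolayers and whether those levels differ after strain.

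PIEZO channels are large membrane proteins that open directly under tension and let calcium in, and in epithelia PIEZO1 is known for linking stretch and crowding to cell division and cell extrusion. TMEM63 proteins are the animal relatives of the osmosensitive OSCA channels of plants. TRPV4 is a calcium channel that opens with swelling, warmth and some lipids, and TRPM7 is a channel fused to a kinase that carries magnesium, calcium and zinc. Polycystin-1 and polycystin-2, the products of PKD1 and PKD2, form a receptor-channel complex in the primary cilium of kidney tubule cells, and loss of either causes polycystic kidney disease. Sequencing measured transcript abundance, and channel opening was not measured.

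Total counts ranged from 27047358 to 32478887 per well. The epithelial identity of the wells was read from 8 marker genes, all of them detected, from the keratin gene KRT8 at 2457 ± 162 to the kidney cadherin gene CDH16 at 1.27 ± 0.421 TMM-normalised CPM (reads scaled to a common library total) in control wells (mean ± SD, n = 4). Of 10 markers of blood, vessel and connective tissue cells, 3 (PTPRC, COL3A1 and DCN) had no read in any well and 3 (CD68, PDGFRA and ACTA2) had enough reads to be tested. The summed level of all 10 ranged from 1.68 to 1.95 CPM per kilobase of exon in the control group and from 1.92 to 2.19 in the stretch group, against 2754 to 3091 and 2905 to 2978 for the epithelial markers. What part such cells have in any result was not tested. In bulk RNA, fewer cells that express a gene and less RNA per cell cannot be told apart.

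Levels between genes were compared as CPM divided by exon length in kilobases. In control wells, TRPV4 had the highest level of the 8 genes, at 29.8 ± 4.66 CPM per kilobase (mean ± SD, n = 4). PIEZO1 followed at 23.0 ± 2.12 and TMEM63B at 21.2 ± 2.40. The control wells of TRPV4 (25.7 to 35.0) did not overlap those of PIEZO1 (20.96 to 25.3), while those of PIEZO1 and TMEM63B (18.9 to 23.3) did, so the order of PIEZO1 and TMEM63B is not settled beyond their spread. TMEM63A stood at 12.3 ± 0.234 CPM per kilobase, TRPM7 at 7.78 ± 0.353, PKD2 at 6.45 ± 0.312 and PKD1 at 4.49 ± 0.80. Each of these lay below the gene before it in every control well. The median tested gene had 8.59 CPM per kilobase in control wells, so TRPV4, PIEZO1, TMEM63B and TMEM63A were above the median gene and TRPM7, PKD2 and PKD1 below it. TRPV4 was at the 78.5 percentile of tested genes on this scale and PKD1 at the 36.0 percentile. The levels rest on the gene models of the table, whose exon lengths run from 2616 bases for TRPV4 to 13947 for PKD1, and reads in untranslated regions that a model leaves out are not counted. The order of the means was the same in stretch wells.

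**Figure D1:**
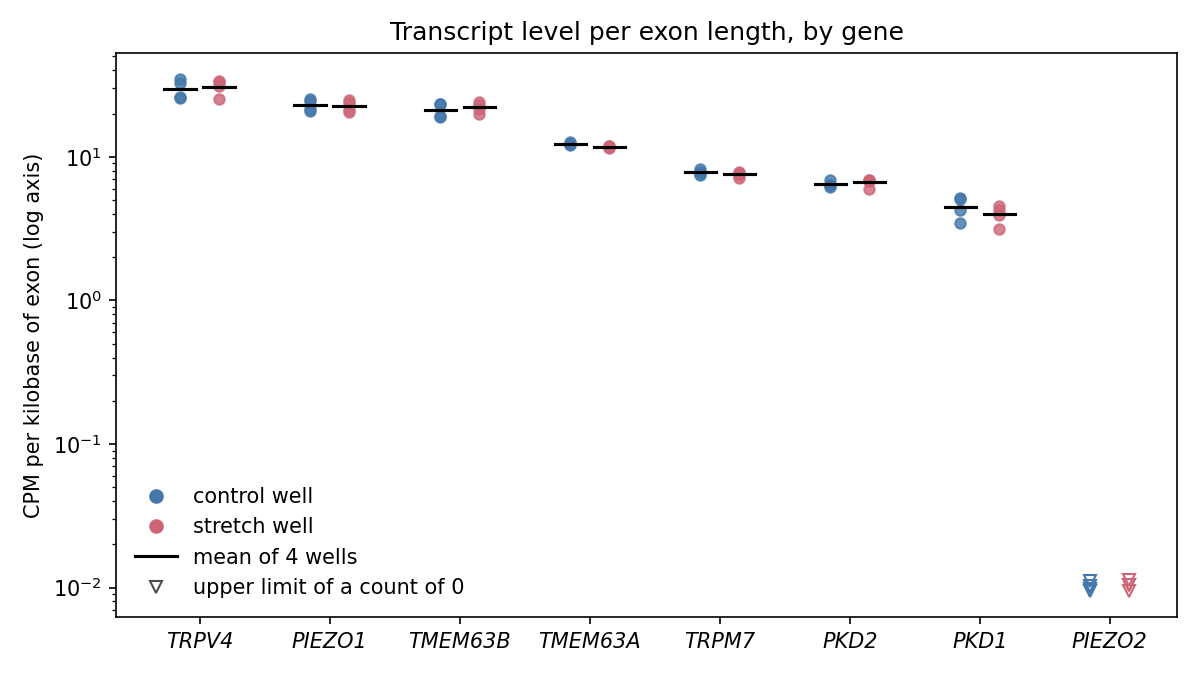
Level per exon length of the 8 genes in control (blue) and stretch (red) wells, on a log axis in CPM per kilobase, with black bars at the mean of 4 wells and open triangles at the limit that a count of 0 sets for PIEZO2. TRPV4, PIEZO1 and TMEM63B are at 18.9 to 35.0 in control wells, PKD1 is at 3.47 to 5.20, and PIEZO2 is below 0.0112.

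The PIEZO genes differed most. PIEZO1, on chromosome 5 (65068355 to 65124410, plus strand), had between 4443 and 6209 reads in every well. PIEZO2, on chromosome 7 (76564098 to 77004969, minus strand) and best known for touch and position sense in sensory neurons and Merkel cells, had 0 reads in all 8 wells. A count of 0 allows up to 3 reads, which is 0.0931 to 0.111 CPM, or 0.00942 to 0.0112 CPM per kilobase, depending on the well, for counting error only. Per exon length, PIEZO1 was therefore at least 1842-fold higher than PIEZO2 in each well, the limit being taken per library. PIEZO2 did not pass the filter on low counts and was not tested. A gene of unknown function on the opposite strand covers 20.1% of its exon length and had 1 to 15 reads per well.

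Other channels reached similar levels. The 8 genes were ranked with 22 other TRP channels and 18 other stretch- or volume-gated channels, 48 genes in all. TRPA1, an irritant-gated TRP channel, was the highest of the 48 at 37.9 CPM per kilobase in control wells (34.5 to 40.2), TRPV4 was at rank 2, PIEZO1 at rank 4 and TMEM63B at rank 5. The wells of TRPA1 and TRPV4 overlapped. TMEM120A, a membrane protein that has been proposed as a mechanosensitive channel, was at rank 3 with 26.6 CPM per kilobase. LRRC8A, the essential subunit of the volume-regulated anion channel, was at rank 6 with 14.4. Of the 22 other TRP channels, 9 were tested and 8 had no read in any well, among them TRPC6 and the calcium channels TRPV5 and TRPV6. The stretch-gated potassium channels KCNK2 and KCNK10 and the hair cell channel TMC2 also had no read in any well, and KCNK4 had 2 to 10 reads.

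After strain, none of the 7 tested genes passed the test. Without a block, 0 of 7 passed edgeR's quasi-likelihood test at an adjusted p of 0.05 (Benjamini-Hochberg over all 14571 tested genes), and 0 had an unadjusted p under 0.05. Over all tested genes these shares were 0% and 3.97%. With the replicate number as a block, 0 of 7 passed, against 0.700% of all tested genes, and 1 of 7 (PKD1) had an unadjusted p under 0.05, against 8.89%. Without the block 3 of the 7 log2 changes were positive and 4 negative, with a median of -0.03, and the median over all tested genes was -0.0032. The median size of the change was 0.05 for the 7 genes and 0.06 for all tested genes. Without the block, the lowest bound of the 7 intervals at the 95% level was -29.1%, for PKD1, and the highest was 24.4%, for TRPV4. Each of these intervals held 0, so for each gene no change and changes of any size inside its interval remained possible. With the block all 7 intervals were narrower, such as -4.27% to 12.3% for TRPV4. That of PKD1, -17.3% to -4.37%, excluded 0, but its adjusted p did not pass.

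**Figure D2:**
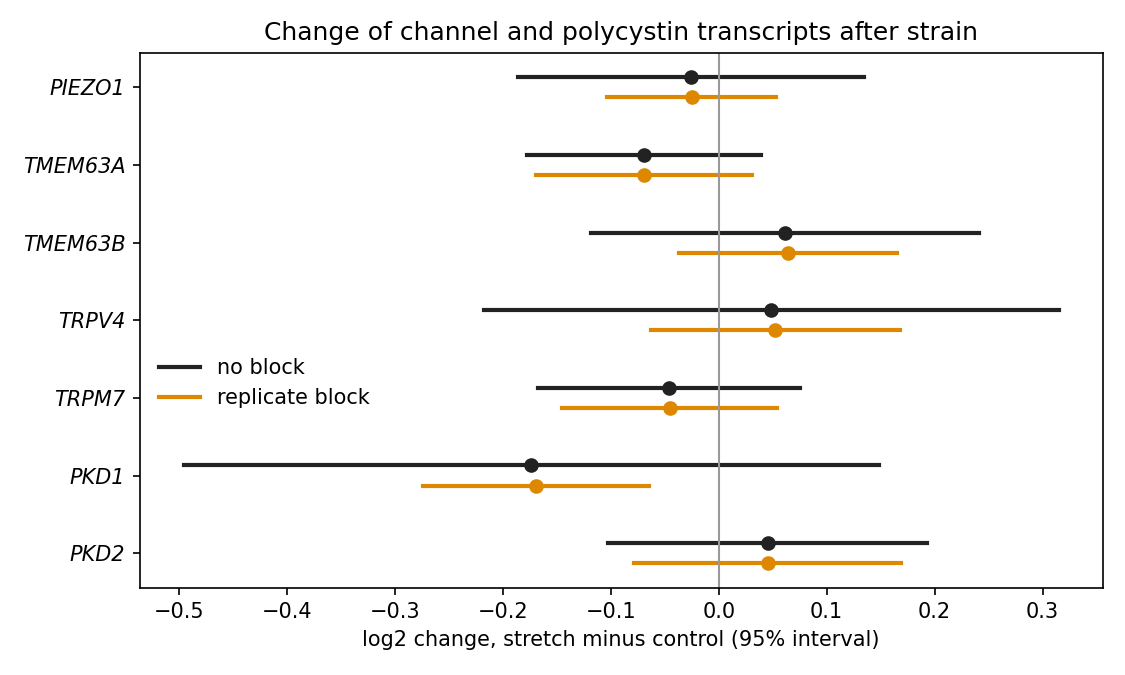
Change after strain on the log2 scale for each tested gene, as the edgeR estimate (point) with its 95% interval (line), without a block (black) and with the replicate number as a block (orange). The intervals without the block all cross 0, and with the block the interval of PKD1 lies below 0, from -0.27 to -0.06, without its adjusted p passing.

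PIEZO1 had 166, 171, 201 and 193 CPM in control replicates 1 to 4 and 169, 164, 196 and 189 in stretch replicates 1 to 4. The groups overlapped almost completely, and replicates 3 and 4 were higher than replicates 1 and 2 in both groups. The log2 change was -0.03 ± 0.07 (SE), with a 95% interval from -12.1% to 9.78% (edgeR, adjusted p = 0.999). With the block, which removes the difference between replicate numbers, the interval narrowed to -6.92% to 3.77% (edgeR, adjusted p = 0.93), and 3 of 4 pairs were lower. Exons of PIEZO1 and of CTU2 on the opposite strand share 35 bases, or 0.441% of the exon length of PIEZO1, where reads could be exchanged if the counting ignored strand.

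TMEM63A, on chromosome 7 (38890919 to 38916009, plus strand), had the least scatter of the 7 genes in both groups. It had 51.0, 51.6, 51.4 and 53.2 CPM in control replicates 1 to 4 and 48.0, 50.3, 49.6 and 49.5 in stretch replicates 1 to 4. Every stretch well lay below every control well, which was the case for 1 of the 7 genes, and 2.55% of all tested genes had groups that did not overlap (1.24% with stretch lower). The coefficient of variation was 1.90% in control and 1.94% in stretch wells, and the difference was small: a log2 change of -0.07 ± 0.05 (SE), or -4.70%, with a 95% interval from -11.6% to 2.74% (edgeR, adjusted p = 0.999 without the block and 0.783 with it). TMEM63A shares 376 exonic bases with an uncharacterised opposite-strand gene that had no read in any well, and 54 with EPHX1, which had 16 to 83 reads per well.

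TMEM63B, on chromosome 12 (12739927 to 12765068, plus strand), had 65.3, 64.1, 78.7 and 78.6 CPM in control replicates 1 to 4. In stretch replicates 1 to 4 it had 67.6, 72.6, 77.8 and 81.2 CPM. The groups overlapped, and the wells of replicates 3 and 4 were again the higher ones. The log2 change was 0.06 ± 0.08 (SE; 95% interval -7.85% to 18.2%), positive in 3 of 4 pairs (edgeR, adjusted p = 0.999 without the block and 0.807 with it). With the block the interval was -2.5% to 12.1%. Per exon length, TMEM63B was 1.72 ± 0.179 times the level of TMEM63A in control wells and 1.88 ± 0.135 times in stretch wells (mean ± SD, n = 4 each), with overlapping ranges of 1.54 to 1.90 and 1.75 to 2.04. In pairs 1 to 4 the ratio went from 1.589 to 1.747, 1.542 to 1.792, 1.904 to 1.948 and 1.835 to 2.036, higher each time. This ratio was not tested. The remaining family member, TMEM63C, was at 1.15 CPM per kilobase in control wells and had a log2 change of -0.05 (edgeR, adjusted p = 0.999).

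TRPV4, on chromosome 26 (17660529 to 17681097, plus strand), varied more between wells than the other genes except PKD1. Its control wells had 68.3, 67.2, 91.7 and 84.9 CPM for replicates 1 to 4, and its stretch wells 66.3, 80.9, 87.4 and 88.2. The groups overlapped, and 2 pairs were higher and 2 lower after strain. The largest pair difference was a log2 value of 0.27 for replicate 2, against -0.04, -0.07 and 0.06 for replicates 1, 3 and 4. The log2 change was 0.05 ± 0.12 (SE), with a 95% interval from -14.0% to 24.4% (edgeR, adjusted p = 0.999 without the block and 0.892 with it). With the block the interval was -4.27% to 12.3%. The sign turned on 1 well, since leaving out control replicate 1 gave -0.0068 and leaving out control replicate 2 gave -0.01, neither of which passed.

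TRPM7, on chromosome 30 (16756456 to 16870962, minus strand), had 54.1, 55.6, 60.1 and 57.5 CPM in control replicates 1 to 4. In stretch replicates 1 to 4 it had 52.4, 54.5, 55.9 and 57.4 CPM. All 4 pairs were lower after strain, although replicate 4 differed by only -0.0016 on the log2 scale and the groups overlapped. All 4 pairs went one way for 3 of the 7 genes (TMEM63A, TRPM7 and PKD1, all lower) and for 16.3% of all tested genes (7.84% with all pairs lower). The log2 change of TRPM7 was -0.05 ± 0.06 (SE; 95% interval -10.9% to 5.35%; edgeR, adjusted p = 0.999 without the block and 0.891 with it). Its close relative TRPM6, which shares the fused kinase and serves magnesium uptake in the distal tubule, stood at 1.35 CPM per kilobase in control wells and had a log2 change of 0.10 (edgeR, adjusted p = 0.999).

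PKD1, on chromosome 6 (39267946 to 39309679, plus strand), had the largest difference and the widest scatter of the 7 genes. It had 48.4, 59.1, 72.5 and 70.5 CPM in control replicates 1 to 4 and 44.2, 55.0, 59.3 and 63.7 in stretch replicates 1 to 4. The groups overlapped, yet each stretch well was lower than the control well of its number, by log2 values of -0.13, -0.10, -0.29 and -0.15. The log2 change was -0.17 ± 0.14 (SE) without the block and -0.17 ± 0.05 with it, and the 95% interval went from -29.1% to 10.9% without the block and from -17.3% to -4.37% with it. The unadjusted p with the block was 0.00337, and the result did not pass (edgeR, adjusted p = 0.999 without the block and 0.168 with it, and 0.543 with a block of 2 levels, replicates 1 and 2 against 3 and 4). Leaving out stretch replicate 1 brought the estimate without the block to -0.07 and leaving out control replicate 1 to -0.28, and neither passed.

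PKD2, on chromosome 32 (28555188 to 28609469, minus strand), did not pass either. Its control wells had 32.5, 35.1, 31.3 and 32.7 CPM for replicates 1 to 4, and its stretch wells 30.7, 34.8, 35.4 and 35.0. The groups overlapped, 2 pairs were higher and 2 lower, and the log2 change was 0.05 ± 0.07 (SE; 95% interval -6.85% to 14.3%; edgeR, adjusted p = 0.999 without the block and 0.916 with it). Per exon length, the ratio of PKD1 to PKD2 was 0.699 ± 0.142 in control wells (0.545 to 0.848) and 0.596 ± 0.0585 in stretch wells (0.527 to 0.666). Those ranges overlapped. In pairs 1 to 4 the ratio went from 0.545 to 0.527, 0.616 to 0.579, 0.848 to 0.613 and 0.788 to 0.666, lower each time. No test of the ratio was made.

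**Figure D3:**
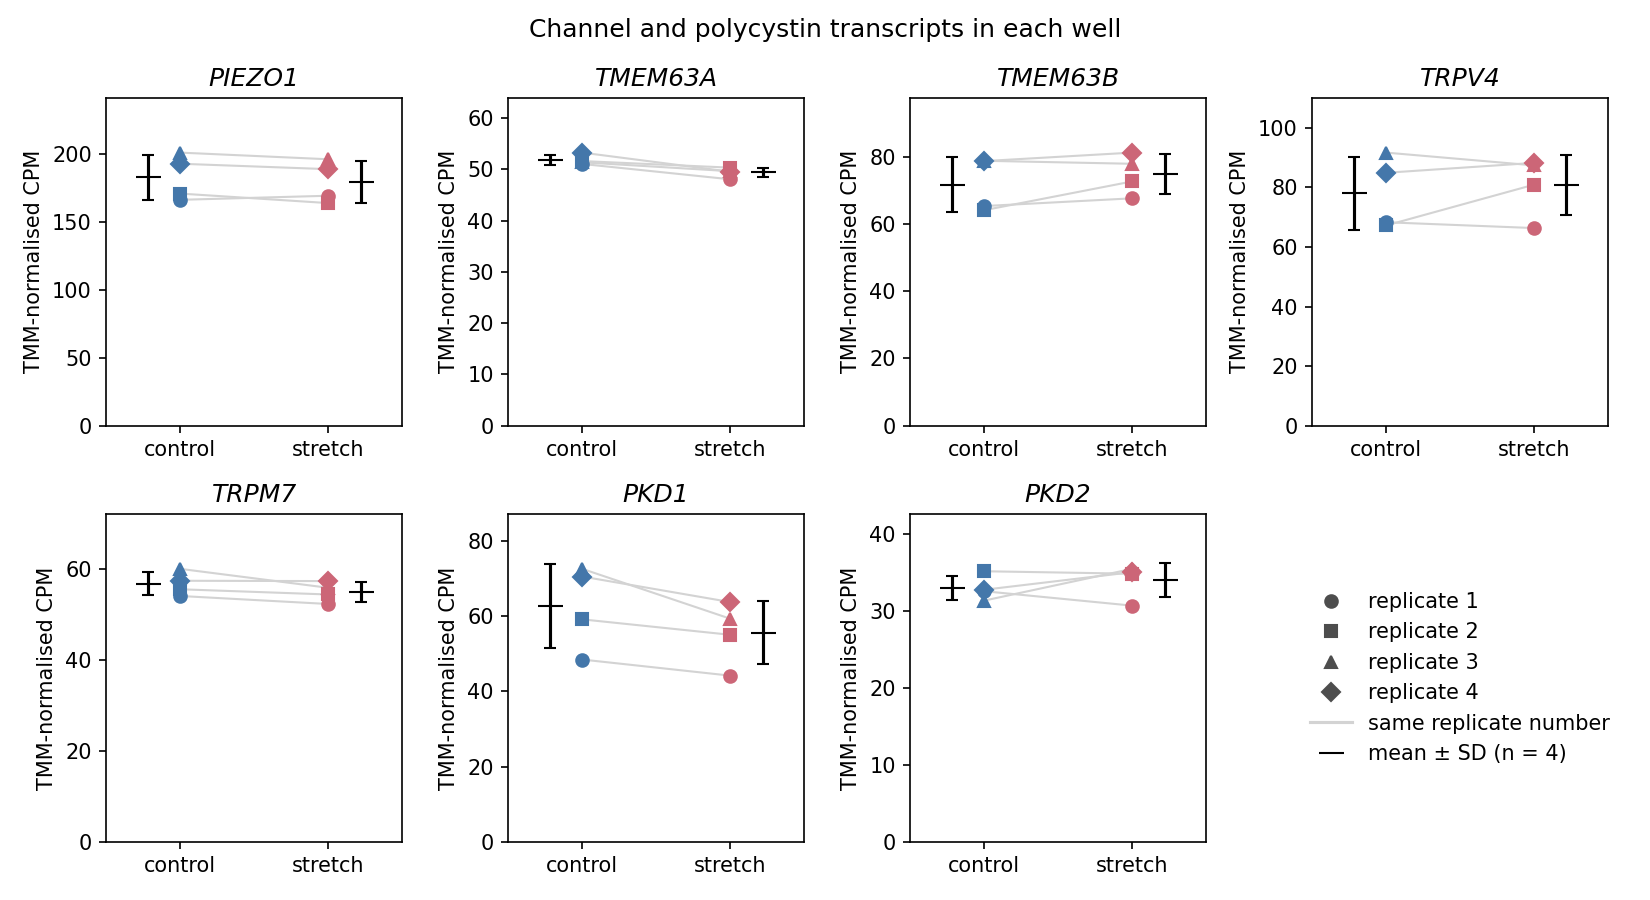
CPM of the 7 tested genes in each control (blue) and stretch (red) well, with a marker for each replicate number, grey lines joining wells of the same number and black bars for mean ± SD (n = 4). The TMEM63A stretch wells (48.0 to 50.3) all lie below the control wells (51.0 to 53.2), the PKD1 lines all slope down, and for PIEZO1 the wells of replicates 3 and 4 lie above those of replicates 1 and 2 in both groups.

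The replicate numbers divided the wells. For 5 of the 7 genes (PIEZO1, TMEM63B, TRPV4, TRPM7 and PKD1), the 4 wells of replicates 3 and 4 lay above the 4 wells of replicates 1 and 2 with no overlap, control and stretch wells together. Over all tested genes 20.4% had no overlap between these sets of wells, and 10.4% had none with replicates 3 and 4 higher. PIEZO1 had 164 to 171 CPM in replicates 1 and 2 and 189 to 201 in replicates 3 and 4, and TRPV4 had 66.3 to 80.9 and 84.9 to 91.7. For TRPM7 the gap was narrow, from 55.6 to 55.9 CPM. TMEM63A and PKD2 did not show it. The labels do not say what the replicate numbers share, and this division was known from earlier results of these data.

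For each tested gene, the tested gene whose log2 CPM over the 8 wells was most like it was found among 14570 others by Pearson r. These were the semaphorin gene SEMA5A for PIEZO1 (0.99), C25H2orf72 for TMEM63A (0.946), the nucleolar gene WDR43 for TMEM63B (0.992), the adhesion receptor gene ADGRG3 for TRPV4 (0.988), FBXO21 for TRPM7 (0.986), the cofilin phosphatase gene SSH1 for PKD1 (0.988) and TSHZ2 for PKD2 (0.947). The values are the highest of many and are given as a description with no p. The wells share the division by replicate number, and TSHZ2 had as few as 3 reads in a well. Without the block 0 of all 14571 tested genes passed the test after strain, these 7 among them (edgeR, adjusted p = 0.999 for each). That result says nothing particular of these 7.

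Genes that act with the channels were read from 7 lists. The lists held 108 genes, the table had 106 of them, and 72 had enough reads for the test. Without the block, 0 of the 72 passed and 3 had an unadjusted p under 0.05 (edgeR), against 3.97% of all tested genes. With the block, 1 passed, a share of 1.39% against 0.700% of all tested genes, and 10 had an unadjusted p under 0.05, against 8.89% of all tested genes. Their median log2 change was 0.00084 without the block, with 36 positive and 36 negative.

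The gene that passed was RCAN1, which encodes an inhibitor of the calcium-activated phosphatase calcineurin and is itself a known target of calcineurin and NFAT. It had 69.0, 66.2, 62.3 and 68.5 CPM in control replicates 1 to 4 and 78.1, 77.3, 81.9 and 78.8 in stretch replicates 1 to 4. Every stretch well was above every control well, and all 4 pairs rose. Over all tested genes, 2.55% had groups that did not overlap and 16.3% had all 4 pairs in one direction. The RCAN1 log2 change of 0.25 ± 0.05 (SE), equal in both fits, had an adjusted p of 0.371 without the block, 0.0208 with it and 0.0181 with the block of 2 levels (edgeR), and without the block it was 0.00537 in DESeq2 and 0.273 in limma-voom. It did not pass in replicates 1 and 2 only or in replicates 3 and 4 only (edgeR, adjusted p = 0.323 and 0.126). With the block, the call was lost without replicate 1, 2 or 4 (edgeR, adjusted p = 0.103, 0.0604 and 0.076) and held without replicate 3 (0.047), with log2 changes from 0.20 to 0.27. NFATC2, the gene of an NFAT transcription factor, had 4.49 ± 0.30 CPM in control and 6.03 ± 0.781 in stretch wells (n = 4). Its groups did not overlap either, and its log2 change of 0.42 ± 0.13 did not pass (edgeR, adjusted p = 0.938 without the block and 0.215 with it). The other 16 tested genes of the list of calmodulin, calcineurin and NFAT genes had an unadjusted p above the threshold in both fits. The median of the 18 tested genes was -0.02, and CALM2, a calmodulin gene at 410 CPM per kilobase in control wells whose reads may be shared with related genes, had a log2 change of -0.06 (edgeR, adjusted p = 0.999).

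Of the genes whose products bind or tune PIEZO channels, 6 of 7 were tested and 0 passed in either fit, with a median log2 change of 0.0061 without the block. Over all tested genes 0% passed without the block and 0.700% with it, so a count of 0 in a list this short says little. CDH1, the gene of E-cadherin, had 617 ± 24.7 CPM in control and 620 ± 19.95 in stretch wells, and CTNNB1, the gene of its partner β-catenin, had 1228 ± 123 and 1177 ± 76.96 (n = 4 each), with log2 changes of 0.0076 and -0.06 (edgeR, adjusted p = 0.999 for both). MDFIC, an auxiliary subunit of PIEZO channels, had a log2 change of -0.09, and ATP2A2, the calcium pump of the endoplasmic reticulum, one of 0.11 (edgeR, adjusted p = 0.999 for both, and 0.308 for ATP2A2 with the block).

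Of the polycystin relatives and cyst-disease partners, 9 of 12 in the table were tested and 0 passed in either fit, with a median of 0.03. A count of 0 is again close to the share of all tested genes, 0% without the block and 0.700% with it. DNAJB11, a chaperone gene of the endoplasmic reticulum that is mutated in a form of polycystic kidney disease, went from 125 ± 11.7 to 138 ± 9.28 CPM and was higher in 4 of 4 pairs, a log2 change of 0.14 that did not pass (edgeR, adjusted p = 0.999 without the block and 0.141 with it). SEC61B, a subunit of the protein translocon, had a log2 difference of -0.09 that did not pass (edgeR, adjusted p = 0.999). Its groups did not overlap, as was the case for 2.55% of all tested genes. PKHD1, the gene of recessive polycystic kidney disease, was at 0.874 CPM per kilobase in control wells with a log2 change of -0.15 (edgeR, adjusted p = 0.999).

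Among other TRP channels, 0 of 9 tested genes passed in either fit, and the median was 0.0073. For each list here, the share over all tested genes was again 0% without the block and 0.700% with it. TRPA1 had a log2 change of -0.05 and the lysosomal channel gene MCOLN1 one of -0.03, while TRPC1 and TRPM4, with the smallest p of the list, had 0.22 and -0.15 (edgeR, adjusted p = 0.999 for each). The other stretch- or volume-gated channels gave 0 of 11, with a median of 0.0026. LRRC8A had a log2 change of -0.02, TMEM120A one of 0.01, LRRC8B one of -0.11 and the acid-sensing channel gene ASIC1 one of -0.27 (edgeR, adjusted p = 0.999 for each). Calcium stores and pumps gave 0 of 11, with a median of -0.01. The calcium release channel genes ITPR1 and ITPR3 had log2 changes of 0.14 and -0.08 and the mitochondrial uniporter gene MCU 0.09 (edgeR, adjusted p = 0.999 for each). Among purinergic receptors, which sense the ATP that stretched cells release, and ectonucleotidases, 0 of 8 passed and the median was 0.03. P2RY2 and ENTPD3, the highest of that list, had log2 changes of -0.02 and -0.14, and P2RX1 and P2RX5, at 0.68 and 1.21 CPM in control wells, had 0.87 and -0.52 (edgeR, adjusted p = 0.999 for each). Counting on the opposite strand could touch CALM2, LRRC8B, TRPM4, ITPR1 and ITPR3, whose exons overlap a gene on the other strand.

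**Figure D4:**
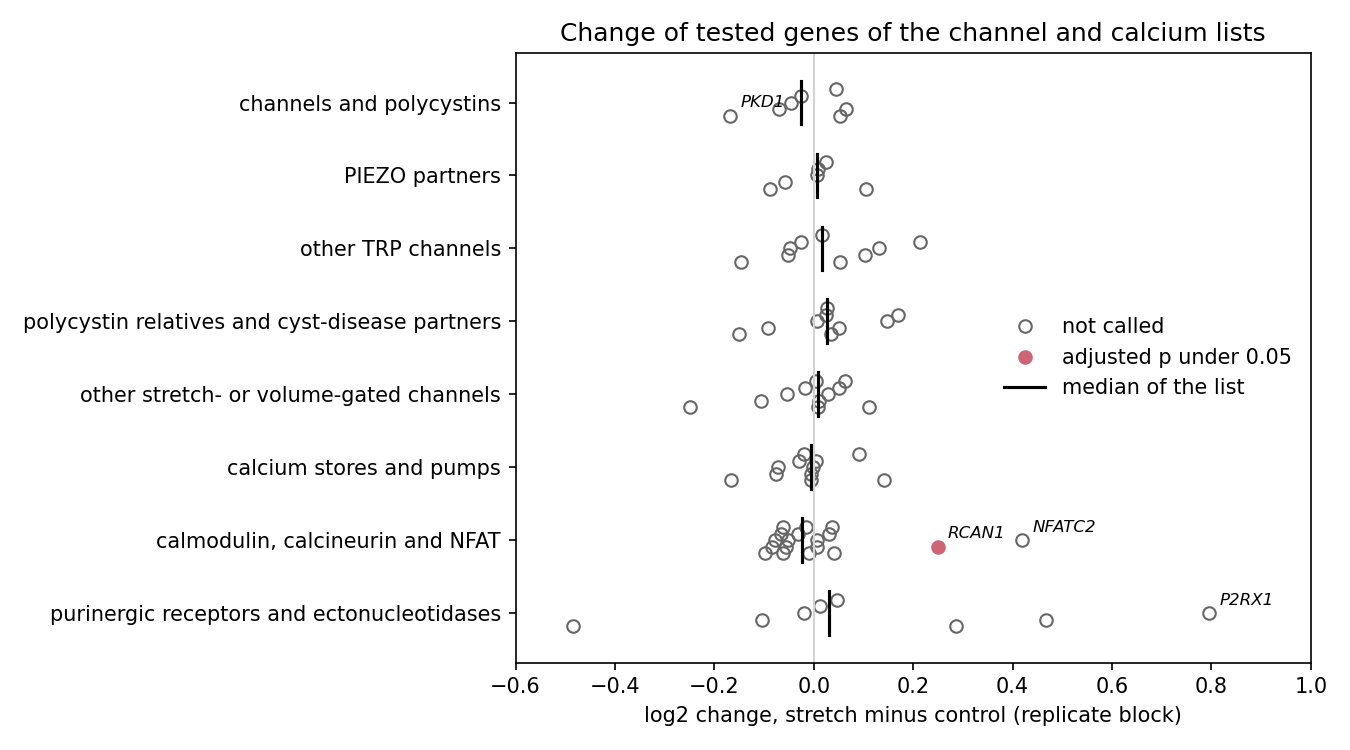
Change after strain on the log2 scale, with the replicate block, of the tested channels and polycystins and of the tested genes of the 7 lists, with a black bar at the median of each list. RCAN1 (0.25) is the one filled point, with an adjusted p of 0.0208, and the open points, PKD1 (-0.17) and NFATC2 (0.42) among them, did not pass.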

How the data were processed

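The authors deposited one table of raw, unnormalised exon counts per gene for 8 libraries, whose names in the header matched the library names in the labels, with 0 columns of other samples. FastQC 0.11.8, Trim Galore 0.6.5, STAR 2.7.3a, Subread and featureCounts are named in the submitters' processing notes, and libraries were strand-specific and polyA-selected per the labels' protocols. The genome build, the strand setting and the handling of multi-mapping reads are not given in the sources used here. Other values deposited per gene were coordinates and exon lengths. Coordinates are printed as in the table, and chromosome numbers come from the RefSeq gene table of UU_Cfam_GSD_1.0, in which 37291 symbols matched, 37291 of them with identical start and end.

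Counts were tested in R 4.3.3 with edgeR 4.0.16 (TMM factors, filterByExpr with a minimum count of 10 and a minimum total of 15, robust glmQLFit and glmQLFTest, two-sided, Benjamini-Hochberg over 14571 genes, threshold 0.05) on an intercept and a stretch term, and were tested on simulated data first. SE is the coefficient divided by the root of F, and 95% intervals use the t distribution of the fit. Total counts of 27047358 to 32478887 per well gave 886 to 6209 reads per well for the tested channel genes. Same-numbered wells deviated together from their group means (correlations across genes of 0.108 to 0.328), so the fit with the replicate block is given beside results. This check does not single out pairs by number. Control replicate 2 correlated at 0.243 with stretch replicate 1 and at 0.108 with stretch replicate 2. Only 1 of 4 control wells and 2 of 4 stretch wells correlated best with their own number. The pairing comes from the titles' numbers, and no label says what a number shares. Alternatives were DESeq2 1.42.0, limma-voom (limma 3.58.1), other scaling and filters, a block of 2 levels and leaving out wells. Log2 CPM used a prior count of 2. The members, lists, markers and tests were chosen with earlier results of these data known. Named genes were the 8 channels, and from each list every gene called, the 2 with the smallest p and the 2 with the highest level per length; others named were chosen after their values were seen. One gene that this rule names is not reported here. Figures were drawn with matplotlib 3.10.9.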

Additional observations from a re-analysis of the deposited data

Results flagged for a closer look

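PKD2 in the stretch wells was the one value set apart by a single well. Replicate 1 had 30.7 CPM while replicates 2, 3 and 4 had 34.8 to 35.4, and the gap to the nearest well took a share of 0.868 of the range of the group. This was 1 of 14 groups of 4 wells examined, and chance alone gives such a gap in about 5% of groups. Without this well the log2 change of PKD2 was 0.09 in place of 0.05, and it did not pass (edgeR without the block, adjusted p = 0.999). The part of chance or of the well in this value was not tested.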

How the results depend on the processing

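None of the 7 tested channel genes passed in any of the 24 alternatives run. The log2 changes of TMEM63A, TMEM63B, TRPM7 and PKD1 kept their sign in all 24 (PKD1 from -0.28 to -0.07, with a smallest adjusted p of 0.103 in edgeR). Their sizes moved: TMEM63B ran from 0.0142 to 0.116, TRPM7 from -0.0658 to -0.0176 and TMEM63A from -0.0773 to -0.0535. PIEZO1 turned positive without control replicate 3 (0.0239), control replicate 4 (0.0028), stretch replicate 1 (0.0052) and stretch replicate 2 (0.0187), in a range from -0.069 to 0.0239 over the wells left out. TRPV4 turned negative without control replicate 1 (-0.0068) and 2 (-0.0129, with up to 0.136 over the wells left out), in replicates 3 and 4 only (-0.0020) and with the replicate block without replicate 2 (-0.0148). PKD2 turned negative in replicates 1 and 2 only (-0.0492). The order of the 8 genes by level was the same with library size only and in stretch wells.

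The count of all genes called, 0 in edgeR without a block, was 102 with the replicate block, 58 with the block of 2 levels, 40 in DESeq2 and 145 in DESeq2 with the replicate block. It was 11 without a filter on low counts, 448 without a filter and with the replicate block, 51 in replicates 1 and 2 only and 25 in replicates 3 and 4 only. It stayed at 0 in limma-voom, with other scalings and with at least 10 counts in every well. Leaving out 1 well gave 0 to 12, and leaving out 1 pair with the replicate block, chosen after seeing the data, gave 43, 67, 186 and 74 for pairs 1 to 4. The block changed no call of a channel gene. The number of each well was not specific: 1 of 4 control wells and 2 of 4 stretch wells correlated best with the well of their own number.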
